A study of Mus musculus with 8 samples.

Results

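The regions described here are stretches of chromatin whose block of acetylated histone H3 (H3ac) was of middle width in cells exposed to Gel and shrank to a small remnant in cells exposed to CuNZ@Gel. They were found by merging the peaks of 4 library peak lists on the 19 autosomes, X and Y that shared 1 bp or more. A region was kept when it had peaks in all 4 libraries, when peaks covered from 1000 to under 4000 bases in the mean of the 2 Gel libraries, and when the mean of the 2 CuNZ@Gel libraries was at most 40% of that. This gave 693 regions out of 81544 merged regions. Of the merged regions 21909 had peaks in all 4 libraries and 11463 of these were of middle width, so 6.05% of the middle-width regions were strongly narrowed. The other 10770 middle-width regions are given beside them.

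All libraries come from RAW 264.7, a single transformed mouse macrophage-like line grown in culture, and both treatment groups were immunoprecipitated with the same antibody to acetylated H3. One group is labelled Gel and the other CuNZ@Gel, with 2 libraries each. By its title the series concerns a nanozyme hydrogel sprayed on diabetic wounds. The labels do not spell out CuNZ. The protocol shared by all samples describes a 48 h exposure to CuNZ@Gel extracts, so the Gel group is known only from its treatment label. Whether the replicates of a treatment are separate cultures is not stated, so their spread may be technical. The macrophage label could not be checked against marker genes, because no annotation of the build of the peak lists, GRCm39, was used here, and for the same reason no region is given a gene or a sequence.

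Acetyl groups on the tail of histone H3 weaken its hold on DNA and are read by bromodomain proteins that help recruit the transcription machinery. Acetyltransferases such as CREBBP add them and histone deacetylases remove them. In macrophages, H3 acetylation is found at active promoters, often over several nucleosomes on both sides of the start site, and at enhancers, where it changes quickly when the cells meet an inflammatory signal. The width of an H3ac peak is the stretch over which enrichment stayed above the caller's threshold, so it depends on the height of the signal and on sequencing depth as well as on the spread of the mark.

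In the narrowed regions the Gel libraries carried a block of somewhat over 1 kb and the CuNZ@Gel libraries a fragment of a few nucleosomes. The median covered width was 1372 bases in Gel replicate 1 and 1366 in Gel replicate 2. It was 491 bases in CuNZ@Gel replicate 1 and 356 in CuNZ@Gel replicate 2. The regions ranged from 505 to 4315 bases in Gel replicate 1, from 548 to 3896 in Gel replicate 2, from 156 to 1681 in CuNZ@Gel replicate 1 and from 160 to 1430 in CuNZ@Gel replicate 2. The Gel libraries were alike in the middle of this distribution, and the second CuNZ@Gel library was the narrower of its pair. These widths chose the regions and are given as a description, with no test. The mean CuNZ@Gel width was between 7.01% and 39.98% of the Gel mean, with a median of 32.2%. In 133 regions it was under 25% of the Gel mean, and in 468 the remnant averaged under 500 bases. In the other middle-width regions the median covered widths were 1662.5 and 1658 bases in Gel and 1300 and 1176 in CuNZ@Gel, and the median CuNZ@Gel share was 74.97%.

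**Figure D1:**
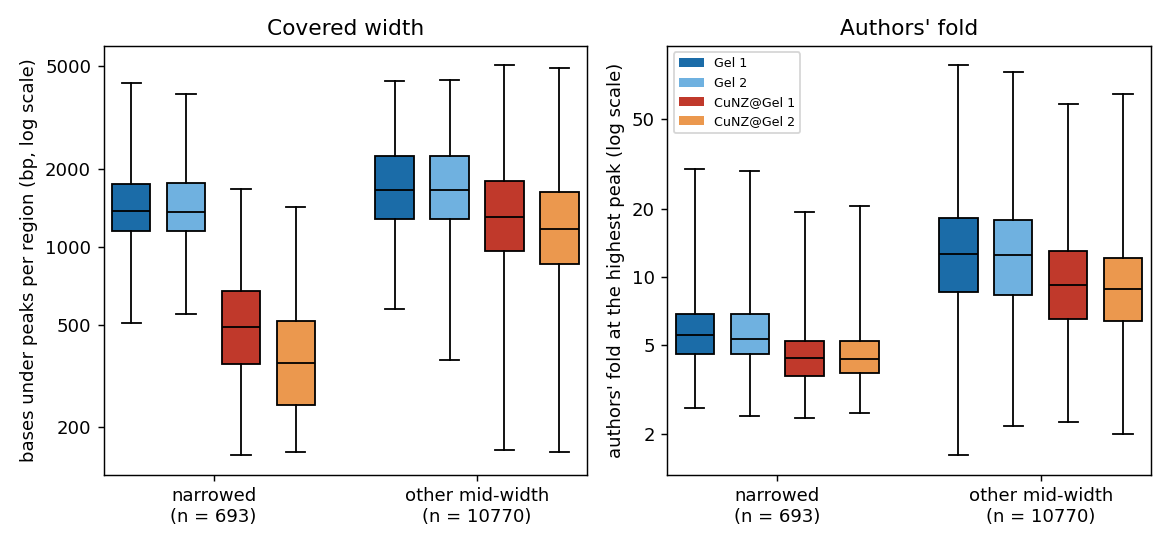
Bases under peaks per region (left, log scale) and the authors' fold enrichment at the highest peak (right, log scale) in each of the 4 libraries, for the 693 narrowed and the 10770 other middle-width regions. Boxes span the quartiles with the median as a line and whiskers reach the lowest and highest region. The narrowed regions fall from about 1370 bases to 491 and 356, and their fold in Gel, near 5, is below the 12.6 and 12.5 of the other regions.

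The 4 libraries did not measure with the same depth, and this bears on every width below. The commonest background of a peak list, in fragments per base, was 4.62 and 4.28 for the Gel replicates, against 3.45 and 2.46 for the CuNZ@Gel replicates, in order of their numbers. At that background the weakest peak on a list needed 13, 12, 11 and 9 summit fragments in the same order. In multiples of the background these are 2.82, 2.80, 3.19 and 3.66, so the signal had to stand higher in CuNZ@Gel, and highest in its second replicate, before it counted as a peak. The flanks of a block drop out of a list sooner where this floor is higher. Its part in the narrowing was not tested.

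The CuNZ@Gel pair lay entirely below the Gel pair in covered width in 692 of the 693 regions and in 83.6% of all middle-width regions. Nothing is read from the first count, since the rule fixed the means. Only 270 regions, or 39.0%, met the 40% limit for each CuNZ@Gel library against each Gel library. In the others at least 1 pair of libraries was above the limit. In the narrowed regions the replicate ratio of covered width spread more in CuNZ@Gel than in Gel. The second Gel library covered 99.4% of the bases of the first at the median, with quartiles of 87.9% and 113%. The second CuNZ@Gel library covered 74.1% of the first, with quartiles of 50.4% and 111%. In the other middle-width regions the medians were 100% in Gel, with quartiles of 92.4% and 108%, and 91.8% in CuNZ@Gel, with quartiles of 79.0% and 103%. The second CuNZ@Gel library was the narrower of its pair in 479 of the narrowed regions and the wider in 212. Across the 693 regions, Spearman's rho of covered width was 0.635 within the Gel pair and 0.184 within the CuNZ@Gel pair. In the 10770 other regions it was 0.905 and 0.859. The rule caps the mean of the CuNZ@Gel widths, so a wide remnant in 1 library needs a narrow one in the other. The cap favours a low rho and a wide spread of the replicate ratio in the CuNZ@Gel pair of the narrowed regions, and nothing is read from either. Regions are not replicates, so no p is given.

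Because the rule used the widths of all 4 libraries, the narrowing was also read in libraries whose widths had no part in the choice, although a region still needed a peak in each of them. Regions with peaks in all 4 libraries were chosen by the same limits in 1 Gel and 1 CuNZ@Gel library and read in the other 2. The first replicates chose 712 regions with a median CuNZ@Gel share of 31.9% of the Gel width. In the second replicates the same regions had a median of 39.2%, and 50.7% of them stayed at or under 40%, against 7.66% of the unchosen middle-width regions. CuNZ@Gel was the narrower of the held-out libraries in 97.3% of the chosen and in 94.95% of the unchosen regions. With the second replicates choosing, 1369 regions had a median of 29.4%. In the first replicates their median was 55.7%, with 26.0% at or under 40%, against 2.47% of the unchosen regions. CuNZ@Gel was the narrower here in 95.1% of the chosen and 90.7% of the unchosen regions. In both readings the median share was nearer to 100% in the held-out libraries than in those that chose. The chosen and unchosen regions were not matched for Gel fold, and strong narrowing was commoner where the Gel fold was low, as given below. Each reading has 1 library per treatment, so no test was made. With all libraries but 1, the rule chose 1306 regions without CuNZ@Gel replicate 1 and 772 to 785 without any of the other 3.

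The remnant lay mostly inside the Gel block. In CuNZ@Gel replicate 1 all covered bases fell under Gel replicate 1 peaks in 517 of the 693 regions, and in CuNZ@Gel replicate 2 this held for 564. These are 74.6% and 81.4% of the regions, against 62.0% and 71.7% of the other middle-width regions. By the rule the narrowed regions have the smaller CuNZ@Gel peaks for their Gel width, which favours the higher shares. In only 4 and 7 regions did the CuNZ@Gel peaks share no base with Gel replicate 1. Cover was lost more on the flanks than at the summit. At 500 bases before and after the Gel replicate 1 summit, peaks covered 61.2% and 62.3% of the narrowed regions in Gel replicate 1, but 18.2% and 15.3% in CuNZ@Gel replicate 1 and 12.1% and 13.4% in CuNZ@Gel replicate 2. At the summit itself the shares were 71.7% and 63.6% in the CuNZ@Gel libraries. In the other middle-width regions the CuNZ@Gel shares were 98.5% and 96.7% at the summit, and 58.6% and 53.0% at 500 bases before it.

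**Figure D2:**
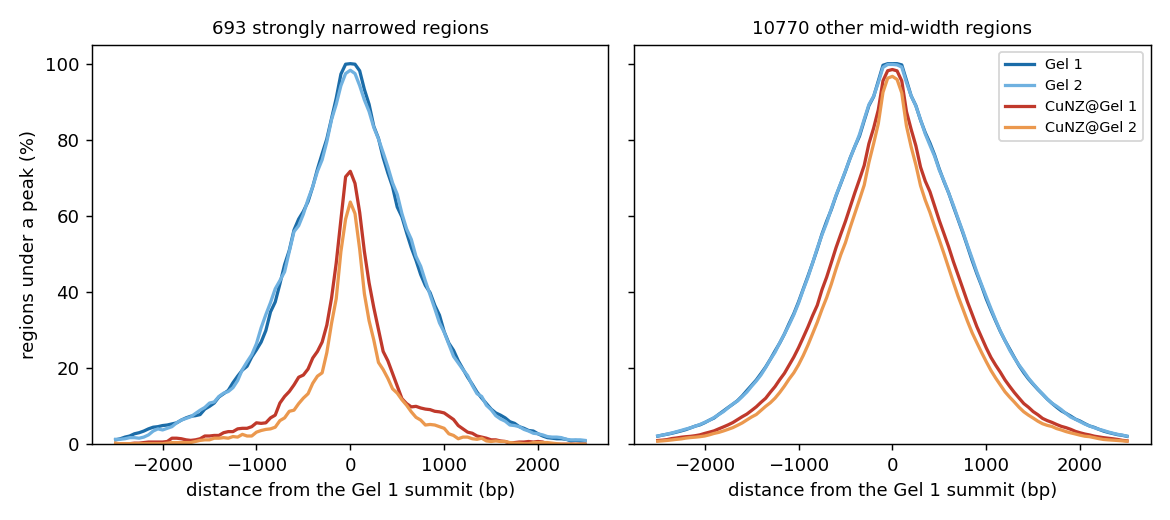
Percent of regions that lie under a peak at each distance, in bp, from the summit of the highest Gel replicate 1 peak, for each library (lines), in the 693 narrowed regions (left) and the 10770 others (right). On the left the CuNZ@Gel curves peak at 71.7% and 63.6% on the Gel summit and fall to under 20% at 500 bases on either side. On the right they stand at 58.6% and 53.0% at 500 bases before the summit, below the 71.7% and 71.8% of the Gel curves.

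The Gel summit was retained in about 2 of 3 narrowed regions. The summit of the highest peak by fold in Gel replicate 1 lay under a peak of CuNZ@Gel replicate 1 in 497 regions and under one of CuNZ@Gel replicate 2 in 441. For the Gel replicate 2 summit the counts were 482 and 410. The mean of these 4 shares was 66.0%, where the CuNZ@Gel peaks of a region covered between 26.0% and 35.5% of the Gel width at the median. As a level for 1 treatment alone, the Gel replicate 1 summit lay under a Gel replicate 2 peak in 681 regions. The summit of CuNZ@Gel replicate 1 lay under a CuNZ@Gel replicate 2 peak in 414 regions, or 59.7%, and the reverse held in 487, or 70.3%. In the other middle-width regions these shares were 96.6% and 98.1%. In the narrowed regions the CuNZ@Gel libraries thus placed their remnant over each other's summit about as often as over a Gel summit. In 92 of them, 13.3%, the peaks of the CuNZ@Gel libraries shared no base with each other, against 0.084% of the other middle-width regions.

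Summits lay closest within the Gel pair, and the CuNZ@Gel pair was about as far apart as libraries of different treatments. The median distance was 108 bases within the Gel pair, 153 within the CuNZ@Gel pair, and 135, 146, 158 and 160 for the 4 pairs across treatments. Summits of the highest peaks were over 500 bases apart in 18.0% of the narrowed regions between the Gel libraries and in 19.05% to 21.8% across treatments. In the other middle-width regions the median distances were 39 bases between Gel libraries, 69 between CuNZ@Gel libraries and 55 to 70 across treatments. How often the highest peak stood in the middle of the Gel block varied little by treatment. The summit lay in the middle of 3 equal parts of the Gel span in 282 and 307 regions for the Gel replicates. For the CuNZ@Gel replicates it did so in 297 and 277. These totals do not show whether a region's summit kept its part, and agreement across treatments was not counted. The summits of both Gel libraries lay in the same part in 65.8% of the narrowed regions, and those of both CuNZ@Gel libraries in 59.6%. In the other middle-width regions these shares were 82.2% and 76.04%.

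The narrowed regions differed among themselves in how firmly the summit was placed. In 273 regions both Gel summits lay under peaks in both CuNZ@Gel libraries, in 370 some of the 4 pairs held, and in 50 none did. In the other middle-width regions these classes held 93.7%, 6.13% and 0.176%. The first class had a median Gel fold of 6.80 and Gel summits 34 bases apart. The middle class had a fold of 4.96 and Gel summits 274 bases apart, so the Gel libraries themselves placed the summit differently there. Distant Gel summits seldom both fit under a narrow CuNZ@Gel peak, so the way the classes were made favours this difference. In the 50 regions without any retained summit the Gel fold was 4.72 and the Gel summits were 124 bases apart. Among the 395 regions with Gel summits within 150 bases of each other, 245 kept both summits in both CuNZ@Gel libraries and 29 kept neither.

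In part of the regions the loss was mostly on 1 side. The 257 narrowed regions with a single peak in each library allow the sides of the Gel summit to be followed. As medians, the longer side reached 836.5 and 831 bases in the Gel replicates but 237.5 and 182.5 bases in the CuNZ@Gel replicates. The shorter side went from 414 and 415.5 bases to 169 and 147. The longer side was defined in the Gel libraries, so a smaller difference between the sides in CuNZ@Gel is favoured by the definition. In 113 of these regions in CuNZ@Gel replicate 1, or 44.0%, over 80% of the lost bases were on 1 side. In CuNZ@Gel replicate 2 this held for 110, or 42.8%. The Gel sides were unequal to begin with, and the sides were not measured in the other middle-width regions. The number of peaks per narrowed region moved in no common direction. There were 2 or more in 230 regions for CuNZ@Gel replicate 1 and in 128 for CuNZ@Gel replicate 2, against 170 and 184 for the Gel replicates. Of the 10770 other regions, 1325 and 1286 held 2 or more peaks in Gel, against 3394 and 3570 in CuNZ@Gel.

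The authors' fold enrichment at the highest peak had a lower median in both CuNZ@Gel libraries. Its median was 5.52 and 5.30 for the Gel replicates, against 4.36 and 4.34 for the CuNZ@Gel replicates. The fold values are the authors' own, one per peak, from separately called lists. The fold of CuNZ@Gel over that of Gel had a median of 0.796, where the other middle-width regions had 0.730. The narrowed regions were weaker in Gel, and in groups divided by Gel fold the order was the reverse. With a mean Gel fold under 10 the median ratio was 0.811 against 0.825 in the other regions. At 10 or more it was 0.561 against 0.694. Strength was not matched within these groups, since the median Gel fold was 5.21 against 7.27 and 12.5 against 16.1. In 10 equal groups of the middle-width regions by Gel fold, the ratio was lower in the narrowed regions in each. It was 0.856 against 0.951 in the weakest group and 0.622 against 0.646 in the strongest, which held 2 narrowed regions. Both CuNZ@Gel libraries were below both Gel libraries in 429 of the 693 regions, 61.9%, where the background over all middle-width regions was 76.6%. In 12 regions they were above, where the background was 1.99%. The share below also turned with strength. Under a Gel fold of 10 it was 58.5%, against 54.8% of the other regions, and at 10 or more 95.3% against 89.9%. The fold belongs to the contrast that chose the regions, so these counts are set side by side and nothing is read from them. The caller's fold adds 1 to both parts of the ratio and so shrinks at low depth. As summit fragments over the library background, the medians were 6.72 and 6.77 in Gel and 5.51 and 5.70 in CuNZ@Gel, and the CuNZ@Gel over Gel ratio had a median of 0.834. This height was lower in both CuNZ@Gel libraries in 370 of the narrowed regions, 53.4%, against 71.4% of all middle-width regions, and higher in both in 3.61% against 3.37%. The shares for height were not divided by strength in Gel. In fragments the medians were 31 and 29 in Gel and 19 and 14 in CuNZ@Gel, where the weakest CuNZ@Gel peaks at the library background held 11 and 9.

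**Figure D3:**
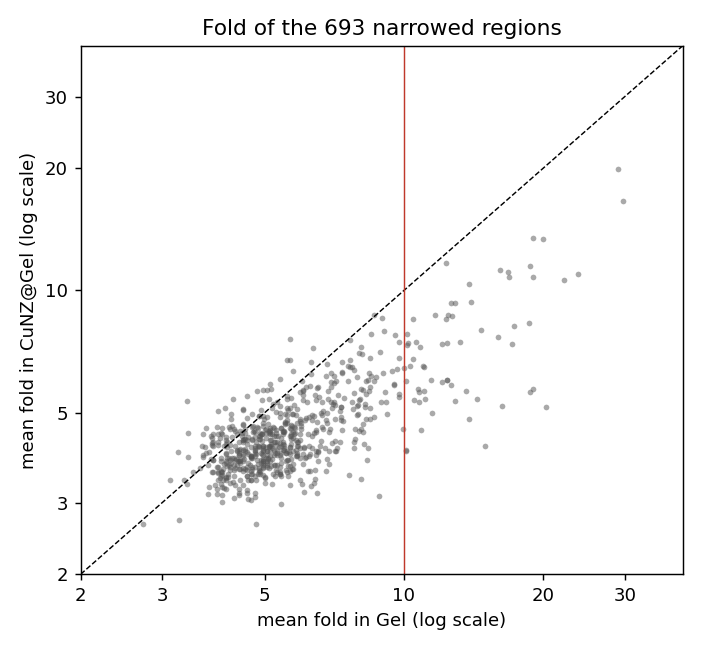
Mean authors' fold at the highest peak in the 2 Gel libraries (x axis, log scale) against the mean in the 2 CuNZ@Gel libraries (y axis, log scale), with 1 point per narrowed region. The dashed line marks equal fold and the vertical line a Gel fold of 10. Most points lie just below the dashed line at a Gel fold near 5, and the 64 regions to the right of the vertical line lie further below it.

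Strong narrowing went with weak enrichment in Gel. The 11463 middle-width regions were ranked by mean Gel fold and cut into 10 equal groups. In the weakest group, with a median Gel fold of 4.94, 402 of 1147 regions, or 35.05%, were strongly narrowed. The share was 11.8% in the second group, 6.20% in the third, 2.44% in the fourth and 0.174% in the strongest, where the median fold was 29.2. The 3 weakest groups held 608 of the 693 regions and the 5 strongest held 39. Narrow blocks were more often affected, with 9.08% of the regions from 1000 to under 1500 bases and 2.32% of those from 3000 bases up, but narrow blocks were also weaker, with a median Gel fold of 8.91 against 18.6. Within a narrow range of strength the order was not the same. Among regions with a Gel fold from 3 to under 5, the share was 40.7% at 1000 to under 1500 bases, 46.4% at 1500 to under 2000 and 60.6% at 2000 to under 4000 bases, the last resting on 33 regions. With a Gel fold from 5 to under 7 the shares were 15.4%, 18.7% and 20.5%, and with a Gel fold from 7 to under 10 they were 3.89%, 5.01% and 4.93%. The floor of each list was 1 value, 2.82 and 2.80 backgrounds in Gel and 3.19 and 3.66 in CuNZ@Gel, and weak blocks stood nearest to it. Its part in this pattern was not tested.

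**Figure D4:**
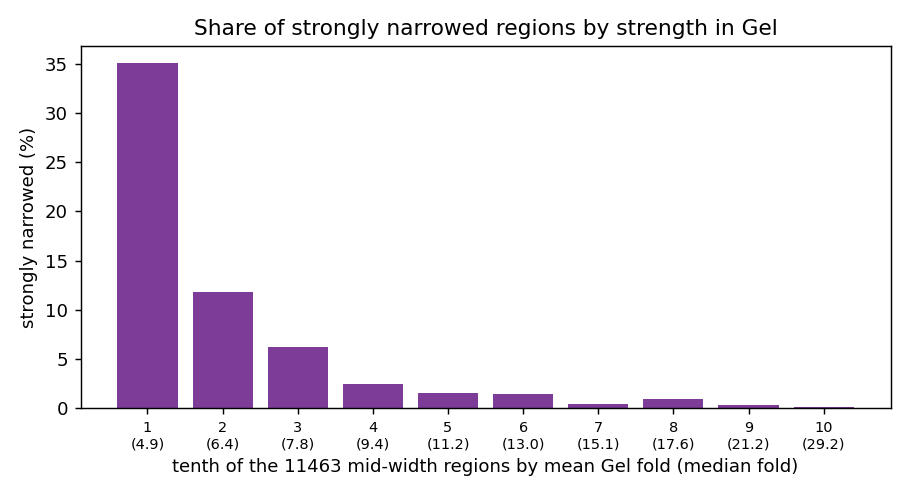
Percent of middle-width regions that were strongly narrowed (bars, from 0) in 10 equal groups ranked by mean Gel fold, with the median Gel fold of each group in parentheses. The share falls from 35.05% in the weakest group to 0.174% in the strongest.

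A small set was narrowed although it was strong in Gel. In 64 of the 693 regions the mean Gel fold was at least 10, a division chosen after the values were seen. Their median covered width was 1924 and 1945 bases in the Gel replicates but 821 and 535.5 in the CuNZ@Gel replicates. The median fold was 12.6 and 12.7 in Gel and 7.53 and 6.94 in CuNZ@Gel. Both CuNZ@Gel libraries were lower in fold in 61 of the 64, or 95.3%. This held for 89.9% of the 6985 other middle-width regions with a Gel fold of at least 10. Those others were stronger, with a median Gel fold of 16.1 against 12.5. The CuNZ@Gel over Gel fold had a median of 0.561, against 0.694 in those other regions. In the 629 weaker narrowed regions it was 0.811, against 0.825 in the other regions with a Gel fold under 10. Those others were stronger too, with a median Gel fold of 7.27 against 5.21. The division is by Gel fold, the divisor of this ratio, which favours a lower ratio in the strong regions. Both Gel summits lay under peaks of both CuNZ@Gel libraries in 57 of the 64, or 89.1%. This held for 99.8% of the other regions with a Gel fold of at least 10. The median distance between Gel and CuNZ@Gel summits was 48 bases. In the 629 weaker regions all 4 pairs held in 216, or 34.3%, against 82.5% of the other regions with a Gel fold under 10. These sets were not matched for strength below 10, and the part of strength in the difference was not tested. The median distance in the 629 regions was 165.5 bases. Within a treatment, the summits of the strong set lay 20 bases apart in Gel and 48 in CuNZ@Gel, and those of the weak set 127 and 179. The summit was thus less firmly placed in the weak set in both treatments.

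The narrowed region with the highest Gel fold lay on chromosome 12 from 69214552 to 69217086. Its fold was 30.1 and 29.5 in Gel and 18.2 and 15.0 in CuNZ@Gel, and its covered width was 2431 and 2321 bases in Gel and 1093 and 789 in CuNZ@Gel. All 4 summits fell within 5 bases of that of Gel replicate 1. On chromosome 8, from 13834865 to 13836607, the fold was 29.2 and 29.0 in Gel and 19.3 and 20.5 in CuNZ@Gel, with widths of 1521 and 1537 against 766 and 288 bases. In both regions the Gel libraries were the higher in fold and the wider.

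On chromosome 2, from 130116381 to 130119345, peaks covered 2911 and 2961 bases in Gel and 1007 and 864 in CuNZ@Gel, with a fold of 22.6 and 24.98 against 11.2 and 10.7. A region on chromosome 11 from 117857010 to 117860040 had 2674 and 3009 bases against 912 and 835, with a fold of 22.8 and 21.6 against 10.6 and 10.7. In both the CuNZ@Gel libraries were nearly equal to each other. The deepest loss of fold among the 6 regions with the highest Gel fold was on chromosome 7, from 48531031 to 48532070. There the fold was 18.2 and 22.3 in Gel and 5.397 and 4.92 in CuNZ@Gel, from 101 and 117 summit fragments against 23 and 16. The width went from 1032 and 982 bases to 456 and 230, with the CuNZ@Gel summits 2 and 42 bases from that of Gel replicate 1. The last of the 6, on chromosome 9 from 50438394 to 50439991, had 1300 and 1598 bases in Gel and 503 and 209 in CuNZ@Gel, with a fold of 21.7 and 18.2 against 15.7 and 10.99. These 6 regions were picked for a high Gel fold, so a lower fold in CuNZ@Gel is favoured by the choice.

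The 8 regions with the largest fall of covered bases were wide blocks, and 2 of them lay side by side on chromosome 4, separated by 833 bases. The first spans 53832612 to 53836361. Peaks covered 3750 and 3384 bases in Gel and 339 and 161 in CuNZ@Gel, and the fold was 8.19 and 7.95 against 2.92 and 3.96. The Gel summits were 1027 bases apart, and the remnant, 826 and 716 bases before the Gel replicate 1 summit, lay under neither. Its neighbour, from 53828327 to 53831778, had 3240 and 3185 bases in Gel and 670 and 458 in CuNZ@Gel, with a fold of 6.97 and 6.06 against 4.27 and 3.76. There the remnant stayed near the Gel summits at 1 end of the block. The CuNZ@Gel peaks of the first region rested on 12 and 13 summit fragments, near the floor of their lists.

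On chromosome 2, from 92430005 to 92433855, the covered width was 3759 and 3851 bases in Gel and 1167 bases in each CuNZ@Gel library. The fold was 19.1 and 18.4 against 6.06 and 5.21. Here the block was cut from 1 side. The Gel peaks ran from 566 bases before the Gel replicate 1 summit to 3193 after it in replicate 1, and from 606 before to 3245 after in replicate 2. The CuNZ@Gel peaks kept the near end, at 537 and 569 bases before the summit, and ended 630 and 598 bases after it. The same ends thus recurred in both libraries of each treatment.

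On chromosome 9, from 43993896 to 43998122, 3950 and 3896 bases were covered in Gel and 1045 and 853 in CuNZ@Gel, with a fold of 13.9 and 15.5 against 6.97 and 8.97. A central remnant from 102 bases before to 552 after the Gel replicate 1 summit in CuNZ@Gel replicate 1 recurred in replicate 2, from 101 before to 569 after. Small side peaks with a fold of at most 3.82 accompanied it. The block on chromosome 15 from 5269344 to 5273658 had widths of 4315 and 3256 bases in Gel and 1317 and 779 in CuNZ@Gel, and the fold was 8.55 and 8.33 against 5.62 and 4.05. Gel replicate 2 itself split this block into 3 peaks.

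A second block on chromosome 15, from 27677811 to 27682152, had 4074 and 3836 bases in Gel and 1492 and 1217 in CuNZ@Gel, with a fold of 16.4 and 21.0 against 11.7 and 11.3. The block on chromosome 1 from 176661019 to 176664880 had 3862 and 3297 against 1207 and 838 bases and a fold of 10.3 and 10.03 against 7.42 and 7.23. On chromosome 8, from 13249400 to 13253276, they were 3771 and 3669 against 1464 and 980 bases, and the fold was 12.6 and 14.9 against 5.17 and 4.45. In these 3 blocks both CuNZ@Gel libraries were below both Gel libraries in width and in fold. Over all middle-width regions this held for 83.6% in width and 76.6% in fold. The blocks were picked for their fall of width, so the order is favoured by the choice. In each block at least 1 peak of each CuNZ@Gel library lay within 500 bases of the Gel replicate 1 summit.

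**Figure D5:**
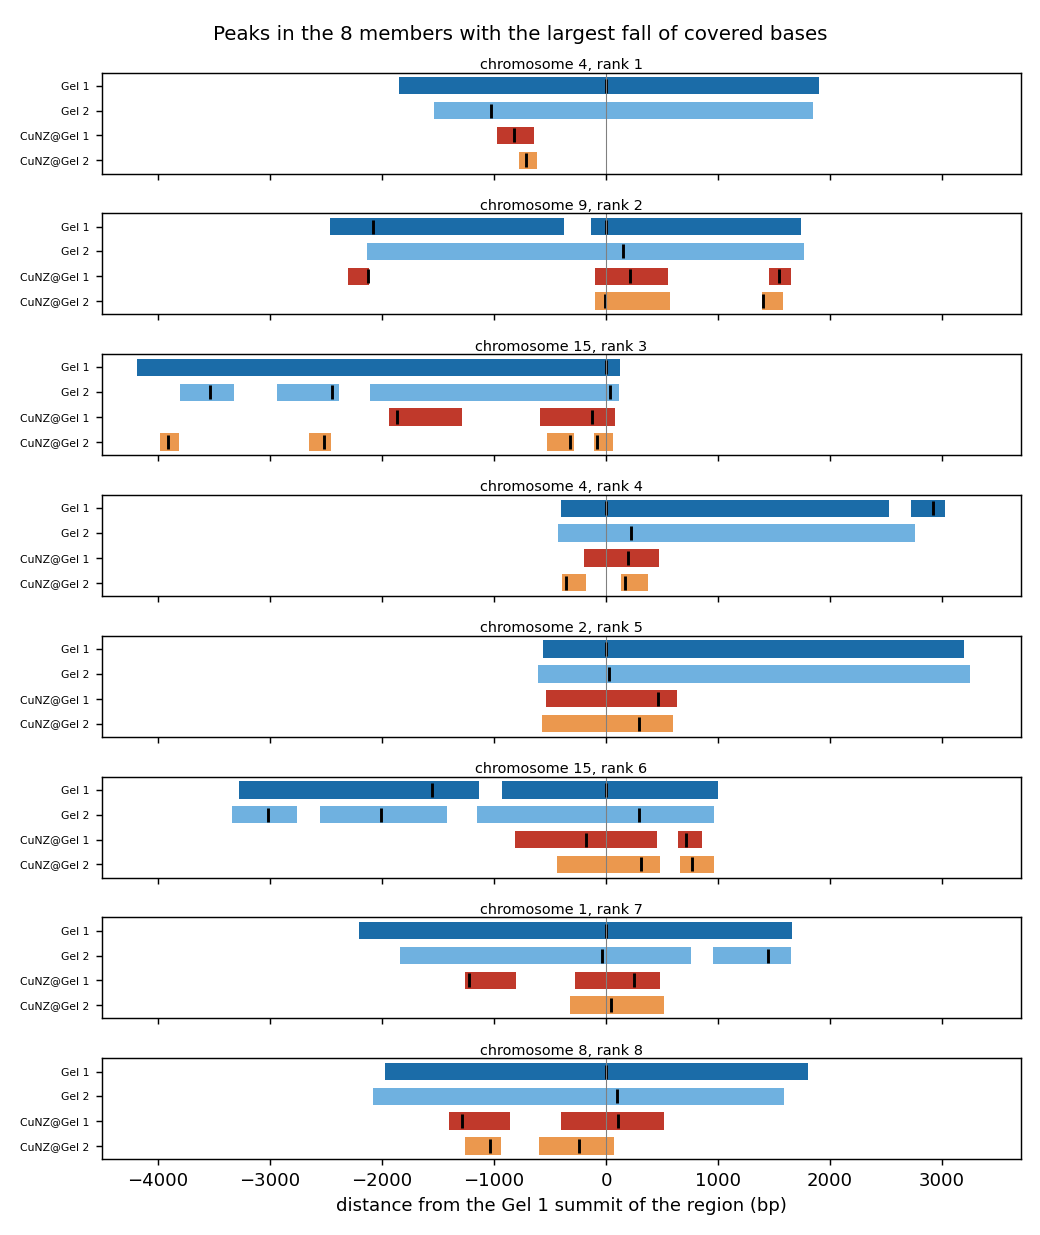
Peaks of the 4 libraries (bars) and their summits (black ticks) in the 8 narrowed regions with the largest fall of mean covered bases, against the distance in bp from the highest Gel replicate 1 summit (grey line). The chromosome 2 block is cut on 1 side in both CuNZ@Gel libraries, the chromosome 9 block keeps a central remnant, and in the top chromosome 4 block the remnant lies 826 and 716 bases away from the Gel replicate 1 summit.

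The limit of 40% cuts through a continuous range. The 3 regions just inside it, on chromosome 8 from 121050057, on chromosome 2 from 24866116 and on chromosome 13 from 69673967, had CuNZ@Gel shares of 39.98%, 39.93% and 39.90%. The first of these had a higher fold in CuNZ@Gel, 7.42 and 6.07, than in Gel, 5.70 and 5.49. The 3 just outside, on chromosome 1 from 184939843, on chromosome 8 from 73336745 and on chromosome 4 from 120588010, had 40.03%, 40.05% and 40.12%. In the last the CuNZ@Gel libraries covered 164 and 741 bases, so the means hide unlike libraries. Between 35% and 40% there were 236 narrowed regions, and up to 45% there were 312 more regions outside.

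The same rule with the treatments exchanged found 1 region, against 693. It lay on chromosome 1 from 165595394 to 165597481, with 946 and 281 bases under peaks in Gel and 1924 and 1917 in CuNZ@Gel. Its fold was 4.16 and 2.66 in Gel and 5.78 and 6.15 in CuNZ@Gel. CuNZ@Gel was the shallower group, and the part of depth in this imbalance was not tested.

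The narrowed regions stood among other H3ac regions. A further region with peaks in both Gel libraries lay within 1 kb of 288 of them, 41.6%, against 41.4% of the other middle-width regions, and the median gap was 1668 bases against 2264.5. A region in all 4 libraries with a Gel fold of at least 10 lay within 20 kb of 52.5% of them, against 41.2% of the others. A narrowed region, other than itself, lay within 20 kb of 66 of the narrowed regions, or 9.52%, and of 6.14% of the other middle-width regions. These shares were not tested.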

How the data were processed

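H3ac chromatin immunoprecipitation libraries of RAW 264.7 cells were analysed from 4 peak lists, 1 per library. Input libraries and the 2 group lists were not used here. Per the submitters' processing notes, the build was GRCm39 and the tools were MACS2 2.2.8, SAMtools 1.17, deepTools 3.5.6 and fastp. The aligner is not given in the sources used here, nor are the options of peak calling. The deposited lists hold start, end and summit offset, the fold enrichment ratio, −log10 p, −log10 q and a score. The deposited score equalled 10 times the −log10 q, cut to a whole number, for at least 99.9856% of peaks, and −log10 q was at least 1.30.

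Peaks were merged and widths summed with Python 3.11.15, pandas 2.3.3, numpy 2.4.6 and scipy 1.17.1. Summit fragments and background were solved from fold, taken as fragments plus 1 over background plus 1, and the Poisson −log10 p, which succeeded for 100% of peaks at a relative tolerance of 0.0001. Merging, choice and solution were checked on simulated data. Coordinates are 1-based. Read totals are not in the lists, so no counting interval was given.

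Members and settings were chosen with earlier results of these data known. Regions named are the 8 largest falls of mean width, the 6 highest Gel folds and 3 on each side of the limit. No test was made: width, fold and summit come from the contrast that chose the regions. Planned results on genes and sequence were not run, since the annotation at hand is of another build. Peak threshold, list length, merging, width measure, limit, summit choice and each library were varied.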

Additional observations from a re-analysis of the deposited data

How the results depend on the processing

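The count of 693 narrowed regions was 682 with only peaks of −log10 q of at least 2 (657 of the 693 remained), 617 with lists of equal length (567 remained) and 923 with gaps of up to 500 bp merged (542 remained). It was 1283 with the width of the widest peak (599 remained), 272 at a limit of 30%, 1448 at 50% and 270 when each library had to meet the limit. Without any 1 library it ranged from 772 to 1306. Of the 693, 486 remained without Gel replicate 1, 496 without Gel replicate 2, 605 without CuNZ@Gel replicate 1 and 449 without CuNZ@Gel replicate 2. The 1306 came without CuNZ@Gel replicate 1, which leaves the shallowest library alone, and the count was 785 without CuNZ@Gel replicate 2. The exchanged rule gave 1 region, 0 with merged gaps, at 30% and with each library, 3 with the widest peak and at 50%, and 0 to 3 without any 1 library. The retained share of Gel summits, 66.0%, was 78.1% with the widest peak, 54.3% at 30% and 76.3% at 50%, and 63.5% to 69.1% without any 1 library. The median summit distance, 151 bases over all pairs across treatments, was 142 with equal lists, 160 with merged gaps, 114.5 with the widest peak, 179.5 at 30%, 115 at 50%, 167.5 with each library, and 118 to 142 without any 1 library. The fold ratio, 0.796, was 0.779 with equal lists, 0.765 with the widest peak, 0.785 at 30%, 0.775 at 50%, 0.774 with each library, 0.782 from the widest peak's fold, and 0.761 to 0.792 without any 1 library. Each setting chose regions narrower in CuNZ@Gel, which favours a fold ratio below 1. The other middle-width regions, at 0.730, were below 1 too. Held-out medians, 39.2% with the first replicates choosing, were 55.7% with the second, 55.1% with Gel 1 and CuNZ@Gel 2 choosing, and 40.6% with Gel 2 and CuNZ@Gel 1, the last 2 pairings added after seeing the data. The cause of these shifts was not tested. No paired analysis was possible because the results come from no test, so same-numbered libraries are given as values only. They gave median widths in CuNZ@Gel of 35.4% and 26.1% of Gel for replicates 1 and 2. Depth limits all widths: a flank below 2.82 and 2.80 backgrounds in Gel, or 3.19 and 3.66 in CuNZ@Gel, is not seen, so a lost flank is one not detectable at this depth.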

Other observations

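Narrowed regions were found on all chromosomes. On the autosomes they made up between 4.29% of the middle-width regions, on chromosome 12, and 8.25%, on chromosome 15. On chromosome X they were 18 of 178, or 10.1%, and on Y 1 of 3. These shares were not tested.

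In 6 places, 3 narrowed regions followed each other with gaps of at most 20000 bases. The tightest lay on chromosome 2 from 91780866 to 91788745, a span of 7880 bases, where mean widths ran from 1135.5 to 1941 bases in Gel and from 359 to 546.5 in CuNZ@Gel. A run on chromosome 15 from 27673435 to 27682152 spanned 8718 bases and included one of the 8 largest falls. The other 4 lay on chromosome 1 from 130989163, chromosome 10 from 79866578, chromosome 7 from 79694317 and chromosome 9 from 43667504.

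Unplaced scaffolds were left out above. Of the 27 middle-width regions on them with peaks in all 4 libraries, 2 met the rule.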
